A study of Mus musculus with 18 samples.

Results

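Tail tendon fibroblasts (TFs) of mice with floxed *Hif1a* and a Cre transgene (cKO) were compared with Ctrl TFs that met Cre recombinase in the culture dish, both after 4 days in 1% O2. The members were the 6 libraries of these groups, 3 cKO and 3 gesicle-treated Ctrl, of 18 in the series, and the 15573 autosomal genes that passed the filter on low counts, of 16174 tested. cKO TFs came from *Hif1a* flox/flox;*ScxCre* mice, in which Cre is made constitutively under the control of *Scx*, a transcription factor gene of tendon cells. Ctrl TFs are labelled wild-type, whereas the study's methods describe Cre-negative Ctrl mice with floxed *Hif1a*, so the alleles of each Ctrl culture are not settled by these sources. The gesicle-treated Ctrl TFs were exposed to Cre gesicles, vesicles loaded with this recombinase, and no dose or exposure time is given. Mice were males and females of 4 to 6 months, with 3 mice per genotype, and cells were grown out of tail tendon in collagen gels and passaged on plastic. Genotype, the route of Cre and exposure to vesicles therefore differ together between these groups and cannot be told apart. Polyadenylated RNA was sequenced, and levels are given as CPM, counts scaled to the TMM-normalised size of each library.

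HIF1A is the oxygen-regulated subunit of the transcription factor HIF1. In oxygenated cells prolyl hydroxylases mark it for degradation through VHL, and in low oxygen it pairs with ARNT and binds hypoxia response elements, whose core is ACGTG, near genes of glycolysis, mitophagy and angiogenesis. TFs make the collagen fibrils of tendon and the small leucine-rich proteoglycans, such as decorin and lumican, that bind these fibrils.

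Depth was uneven between the libraries. cKO replicate 1 held 6857558 counts and 17314 detected genes, whereas the other 5 libraries held 32146235 to 39782214 counts and 20501 to 21362 detected genes. A count of 3, taken as the floor, corresponded to 0.437 CPM in cKO replicate 1 and to 0.0754 to 0.0933 CPM in the others. Log2 CPM values of cKO replicate 1 correlated with those of the other 5 libraries at 0.932 to 0.947 across genes, against at least 0.9747 between any others of the 6, so named values that turned sign or moved by over 1.5 times without this library are also given without it. The share of mitochondrial transcripts was 0.534% to 0.754% in cKO and 0.387% to 0.4545% in gesicle-treated Ctrl libraries. *Xist* and Y-linked counts placed 1 of 3 cKO and 2 of 3 gesicle-treated libraries in female mice. The part that these technical and sex differences play in the results was not tested beyond the alternatives given in the closing section.

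The targeted gene was examined next. *Hif1a* stood at 427.8, 398.4 and 503.7 CPM in cKO TFs and at 393.6, 369.8 and 387.3 CPM in gesicle-treated Ctrl TFs (log2 fold change 0.21 ± 0.14 (SE), edgeR adjusted p = 0.483). Whole-gene counts were thus not lower in cKO TFs, and these counts include exons outside the floxed segment, so they do not show whether the allele was recombined in either group. The row for the Cre transgene held 0, 2 and 3 counts in the cKO libraries and 0 in each gesicle-treated library, a level at or below the floor of 3 counts. In 20% O2 this row held 1, 5 and 4 counts in the cKO libraries, and it was at 0 in every Ctrl library of the series. Few as they are, counts of Cre were thus seen in cKO libraries only, and they do not measure recombination. Recombination was therefore not measured by these data in any of the 6 libraries.

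The 18 fibroblast and tendon identity markers summed to 9890 to 15800 CPM in cKO and 13400 to 20500 CPM in gesicle-treated Ctrl TFs. Abundant collagen genes such as *Col1a1* are part of this sum, so it does not measure tendon genes alone. *Scx* was at 7.399, 17.53 and 17.71 CPM in cKO and 10.54, 15.11 and 8.758 CPM in gesicle-treated Ctrl TFs. Some markers of other cell types were at 0 in all 6 libraries. These included *Adgre1*, *C1qa* and *Tyrobp* of macrophages, *Cldn5*, *Emcn* and *Tie1* of endothelium, and *Pax7*, *Myog* and *Ckm* of muscle. *Adipoq* of adipocytes and *Acan* of chondrocytes were also at 0. The other 8 macrophage markers had counts, mainly *Lyz2* and *Cd14*. Further markers were present, such as *Tek* of endothelium (16.8 to 39.2 CPM), *Sox9* of chondrocytes (24.5 to 37.7) and *Lpl* of adipocytes (65.5 to 157). Of the Schwann and keratinocyte markers, 0 were at 0 in all 6 libraries. Some marker sums differed between the groups: the 10 muscle markers gave 18.6 to 24.2 CPM in cKO and 37.5 to 43.5 CPM in gesicle-treated Ctrl TFs, led by *Acta1*, the 8 mural markers 26.7 to 40.9 against 41.7 to 69.5 CPM, and the 7 osteoblast markers 2.23 to 2.98 against 3.13 to 6.82 CPM. Sums of the macrophage, endothelial, Schwann, adipocyte and chondrocyte markers overlapped between the groups, at 27.3 to 32.6 against 23.4 to 36.7, 20.2 to 44.3 against 19.9 to 27.7, 12.4 to 16.4 against 6.24 to 15.8, 115 to 174 against 84.5 to 124, and 29.3 to 32.7 against 27.6 to 40.8 CPM. The 8 keratinocyte markers summed to 16.5 to 19 CPM in cKO and 18.9 to 22.7 CPM in gesicle-treated Ctrl TFs. In these bulk samples, fewer cells of a kind and less RNA per cell cannot be told apart.

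Decorin and the kinase gene *Mapk12* were the only genes that passed the test, and both rose in cKO TFs. A gene was called at an adjusted p under 0.05 and a change of at least 1.5-fold in edgeR's quasi-likelihood test, and 2 of 15573 autosomal genes were called (0.0128%), with 2 higher and 0 lower. At an unadjusted p under 0.05 and the same fold, 1235 genes (7.93%) passed, 501 higher (3.22%) and 734 lower (4.71%). DESeq2 called 146 of the 14198 genes to which it gave an adjusted p (1.03%), 50 higher (0.352%) and 96 lower (0.676%). CPM values of the groups did not overlap for 1310 genes with cKO higher (8.41%) and 1392 with cKO lower (8.94%). The median log2 fold change over all genes was 0.01, with quartiles of -0.28 and 0.23.

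*Dcn* encodes decorin, a proteoglycan of the surface of collagen fibrils, and lies at chr10:97479609-97518143 (GRCm38). Its level was 429.5, 939.4 and 828.1 CPM in cKO TFs and 164.4, 124.9 and 181.5 CPM in gesicle-treated Ctrl TFs. The lowest cKO library, replicate 1, still held more than the highest gesicle-treated one. The difference was 2.22 ± 0.30 on the log2 scale (SE, n = 3 per group, adjusted p = 0.0258 in edgeR), and it was 2.49 without cKO replicate 1 (edgeR adjusted p = 0.00361). In untreated Ctrl TFs in 1% O2, *Dcn* stood at 111.5, 108.2 and 146.8 CPM, below every cKO library as well. In 20% O2 the groups also did not overlap, with 750.7, 974.5 and 757.5 CPM in cKO and 298.9, 195.1 and 369.3 CPM in gesicle-treated Ctrl TFs (1.52 ± 0.29 on the log2 scale, edgeR adjusted p = 0.0365).

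*Mapk12* encodes p38 gamma, a stress-activated kinase, and lies at chr15:89130584-89140703. It was a gene of low level with little spread, at 7.399, 8.350 and 7.179 CPM in cKO TFs and 3.193, 3.267 and 3.461 CPM in gesicle-treated Ctrl TFs. On the log2 scale the difference was 1.21 ± 0.17 (SE, n = 3 per group, adjusted p = 0.0258 in edgeR). Untreated Ctrl TFs in 1% O2 held 5.770, 3.844 and 4.173 CPM, between the groups. In 20% O2 the difference between cKO and gesicle-treated Ctrl TFs was 0.53 ± 0.17 on that scale (adjusted p = 0.209 in edgeR). The call of each gene was lost in edgeR when only the 6 libraries were fitted (adjusted p = 0.141 for *Dcn* and 0.232 for *Mapk12*) and when any library other than cKO replicate 1 was left out (0.0587 to 0.248 and 0.0769 to 0.248). With counts thinned to equal depth *Mapk12* lost its call (adjusted p = 0.425 in edgeR).

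The promoter of *Mapk12* is shown because it is the called gene with an entry among the RefSeq promoters (GRCm38.p6). *Fam162a* and *Bnip3*, described further on, are shown beside it as hypoxia response genes whose groups did not overlap and whose windows held ACGTG on either strand. The windows are the 250 bases before the gene start, on the minus strand, at chr15:89140704-89140953, chr16:36071562-36071811 and chr7:138909507-138909756, written from 5′ to 3′. Capitals mark ACGTG or its reverse complement CACGT, and where these overlap the palindrome CACGTG is seen.
Mapk12: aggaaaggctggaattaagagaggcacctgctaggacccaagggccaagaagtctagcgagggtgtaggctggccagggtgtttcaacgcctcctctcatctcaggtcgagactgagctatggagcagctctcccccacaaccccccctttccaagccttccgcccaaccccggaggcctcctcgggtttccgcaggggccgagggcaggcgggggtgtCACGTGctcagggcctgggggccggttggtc
Fam162a: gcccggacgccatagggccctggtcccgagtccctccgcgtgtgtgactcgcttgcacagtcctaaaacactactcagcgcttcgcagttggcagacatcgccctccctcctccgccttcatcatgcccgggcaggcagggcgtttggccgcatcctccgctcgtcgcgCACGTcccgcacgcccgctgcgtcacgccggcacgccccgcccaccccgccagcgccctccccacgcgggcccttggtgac
Bnip3: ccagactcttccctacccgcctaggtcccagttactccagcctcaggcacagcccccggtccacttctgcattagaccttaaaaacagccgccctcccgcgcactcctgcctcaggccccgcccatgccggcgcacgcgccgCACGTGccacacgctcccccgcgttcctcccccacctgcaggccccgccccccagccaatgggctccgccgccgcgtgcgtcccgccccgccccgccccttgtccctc
The match lay 31 bases before the start of *Mapk12* as the overlapping palindrome, 81 bases before that of *Fam162a* and 108 bases before that of *Bnip3*, again as the palindrome. Among 13843 windows of the autosomal genes tested, 2912 (21%) held ACGTG on either strand, and among 49 windows of 35 hypoxia response genes 24 did. Of 14 windows of the hypoxia response genes that were higher in cKO TFs without overlap, 7 held it. The windows of *Stc2* and *Higd1a*, hypoxia response genes named further on, had 0 matches, so the windows printed do not stand for the list. Of 32851 windows of all promoters, 16.6% held it. A match describes these letters and is not evidence of binding.

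Beyond these calls, 22 further genes were taken by smallest p among those without overlap between the groups and with a mean of at least 1 CPM in the higher group, 10 higher and 12 lower in cKO TFs. None passed the edgeR test, and their adjusted p ran from 0.0705 to 0.138. DESeq2 called all 24 genes, the 2 above included. Because they were taken by their p, their lack of overlap is not a result.

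Among the higher genes, *Lum*, which encodes lumican, a fibril-binding proteoglycan next to *Dcn* on chromosome 10, was at 4.553, 8.868 and 25.46 CPM in cKO TFs and 0.6096, 1.682 and 1.716 CPM in gesicle-treated Ctrl TFs (log2 fold change 3.31 ± 0.56, edgeR adjusted p = 0.0705). The cKO libraries spread widely for this gene, and without cKO replicate 1 its adjusted p was 0.0223. *Efhd1*, encoding a mitochondrial calcium-binding protein, was at 5.549, 7.198 and 7.329 against 1.393, 1.359 and 2.799 CPM (1.87 ± 0.31, 0.0705). *Cyb561*, encoding a transmembrane electron carrier, was at 10.96, 8.062 and 9.530 against 4.064, 3.656 and 4.575 CPM (1.21 ± 0.21, 0.0711). *H2-Ab1*, a class II antigen presentation gene, was at 5.549, 4.232 and 6.153 against 2.468, 2.297 and 2.107 CPM, and the part of macrophages in it was not tested beyond the marker sums above, which overlapped. *Pde9a*, encoding a cGMP phosphodiesterase, was at 6.545, 7.342 and 11.73 against 4.529, 2.556 and 3.220 CPM. These low-level genes separated the groups by 2-fold or more in their means, whereas *Tcf4*, a transcription factor gene, and *B3galnt1*, a glycosyltransferase gene, had higher levels and smaller differences, with a log2 fold change of 0.63 each. *Tcf4* was at 152.4, 148.0 and 138.5 against 91.10, 107.0 and 85.36 CPM, and *B3galnt1* at 211.0, 172.7 and 148.9 against 106.5, 117.5 and 118.7 CPM.

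A pseudogene showed a split among the cKO libraries. *Capza1-ps1* stood at 12.38, 109.5 and 118.4 CPM in cKO TFs and at 7.025, 7.246 and 7.253 CPM in gesicle-treated Ctrl TFs (3.49 ± 0.72, edgeR adjusted p = 0.115). In 20% O2 the cKO libraries repeated this order, at 10.97, 95.01 and 117.0 CPM, and the gesicle-treated ones held 6.767, 6.791 and 6.096 CPM. Without cKO replicate 1 its adjusted p in 1% O2 was 0.0244. Its reads may be shared with the near-identical *Capza1*, which stood at 499.8, 329.3 and 335.4 CPM in cKO and 470, 443.5 and 444.9 CPM in gesicle-treated Ctrl TFs. *Gm10800*, a gene model with near-identical copies, was at 8.395, 17.19 and 17.58 against 1.074, 0.8088 and 3.251 CPM and is uncertain for the same reason. *A730056A06Rik*, at 2.703, 3.225 and 3.527 against 1.074, 0.9705 and 0.6019 CPM, overlaps an exon of *Rgma* on the other strand, and no source used here states that counting used strand.

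Among the lower genes, *Clcf1*, a cytokine gene of the interleukin 6 family, was at 11.10, 12.73 and 12.18 CPM in cKO TFs and 23.37, 20.32 and 23.66 CPM in gesicle-treated Ctrl TFs (-0.90 ± 0.15, edgeR adjusted p = 0.0705). *Ddr1*, encoding a collagen receptor kinase, was at 56.77, 67.98 and 76.66 against 121.3, 155.3 and 130.9 CPM (-1.01 ± 0.18, 0.0711). *Smad7*, encoding an inhibitory SMAD, was at 10.53, 10.85 and 14.01 against 27.84, 46.78 and 23.20 CPM (-1.46 ± 0.27, 0.0942). All cKO libraries of these 3 genes lay close together, and the gesicle-treated libraries of *Smad7* spread more. *Nr4a1*, an immediate-early nuclear receptor gene, was at 5.122, 9.559 and 8.329 against 16.11, 17.82 and 16.04 CPM (-1.08 ± 0.20, 0.0942). *Mrtfa*, encoding a coactivator of SRF, was at 19.35, 17.05 and 18.66 against 38.64, 41.80 and 28.53 CPM (-0.99 ± 0.20, 0.115). It overlaps *Sgsm3* on the other strand, which stood at 31.73, 27.84 and 32.12 against 29.47, 30.21 and 30.70 CPM.

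Transporter and receptor genes completed this set. *Slc6a17*, an amino acid transporter gene, was at 8.537, 6.104 and 5.003 against 21.80, 16.66 and 14.60 CPM (-1.47 ± 0.25, edgeR adjusted p = 0.0705), and *Slc20a1*, a phosphate transporter gene, at 19.21, 24.99 and 24.71 against 38.55, 38.88 and 35.30 CPM (-0.70 ± 0.12, 0.0711). *Adra2a*, encoding the alpha-2A adrenergic receptor, was at 1.280, 1.497 and 1.976 against 7.635, 5.920 and 8.217 CPM. *Plxnc1*, a semaphorin receptor gene, was at 0.2846, 0.5182 and 0.8254 against 3.455, 5.597 and 2.348 CPM, and its value in cKO replicate 1 was below the floor of 0.437 CPM there. These were the lowest cKO levels relative to gesicle-treated Ctrl TFs in the set, with log2 fold changes of -2.15 ± 0.43 and -2.65 ± 0.53 (0.115 each). *Susd4*, *Bdh1* (a ketone body enzyme gene) and *Morc1* followed with log2 fold changes of -1.56, -1.002 and -1.58.

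**Figure D1:**
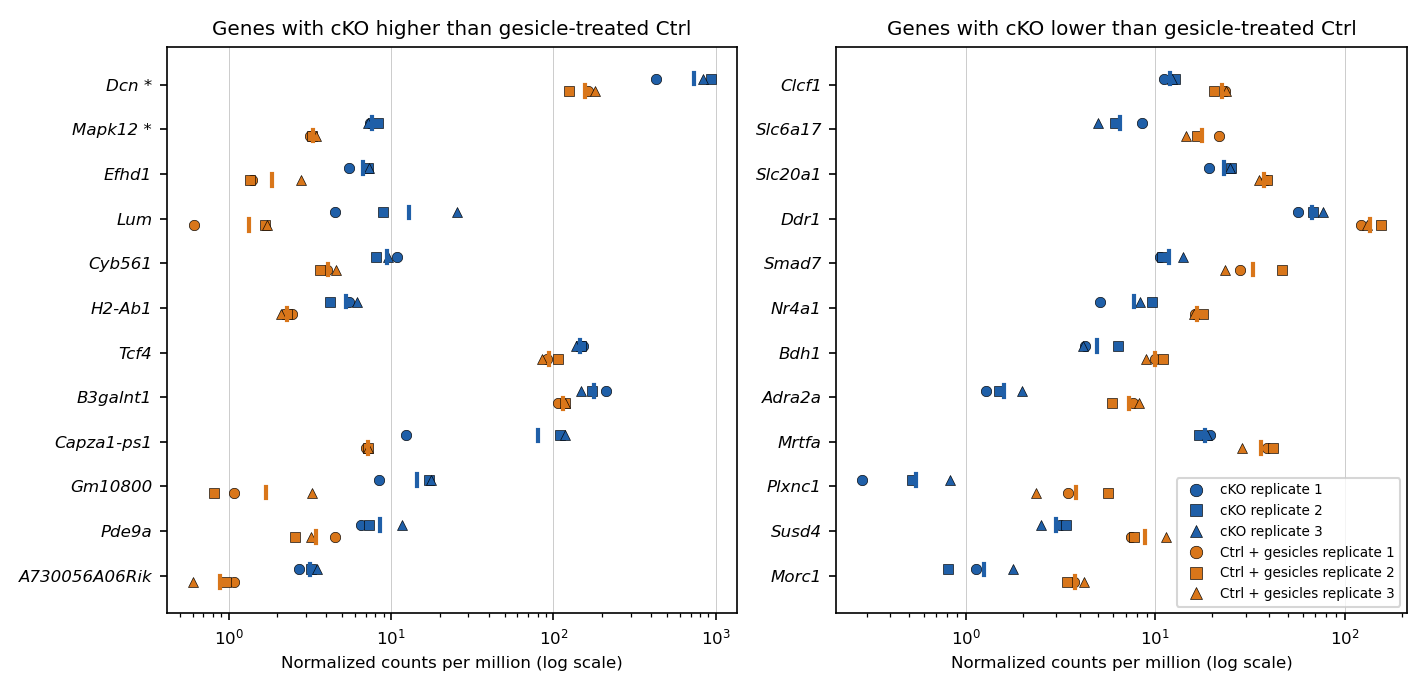
CPM (log scale) of the 24 genes in each of the 6 libraries, with cKO TFs in blue, gesicle-treated Ctrl TFs in orange, symbols for the replicate number and short bars for group means, and an asterisk for the 2 called genes. *Dcn* stands at 429.5 to 939.4 CPM in cKO and 124.9 to 181.5 CPM in gesicle-treated Ctrl TFs, and *Capza1-ps1* is at 12.38 CPM in cKO replicate 1 and at 109.5 and 118.4 CPM in the other cKO libraries.

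The same contrast in 20% O2 used other libraries of the same genotypes and treatment. The labels do not say whether these came from the same mice. However, the methods give 3 mice per genotype, and libraries with the same number shared the sex at both O2 levels. The values in 20% O2 are thus not an independent repeat in other animals. There, 81 autosomal genes were called (0.52%), 9 higher (0.0578%) and 72 lower (0.462%). *Dcn* was called at both O2 levels, and it was the only gene called in both. Of the 12 genes taken as higher, all 12 had the same sign in 20% O2, 10 had groups that did not overlap there and 2 were called, *Dcn* and *Capza1-ps1*. Of all 1310 genes that were higher without overlap in 1% O2, 83.3% had the same sign in 20% O2 and 20.8% did not overlap there in the same direction, and over all genes 7.75% were higher without overlap in 20% O2. Of the 12 taken as lower, all 12 had the same sign and no overlap, and *Adra2a* was called. Of all 1392 genes that were lower without overlap in 1% O2, the shares were 88.1% and 24.6%, and over all genes 6.91% were lower without overlap in 20% O2. For the difference of the contrast between O2 levels, edgeR called 0 genes, the lowest adjusted p was 1.0, and 249 genes (1.6%) passed at an unadjusted p under 0.05 and 1.5-fold. Among the 24, the unadjusted p of this difference was lowest for *Cyb561* (0.00526), *Mapk12* (0.0113) and *Gm10800* (0.0123), which the adjustment did not retain.

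**Figure D2:**
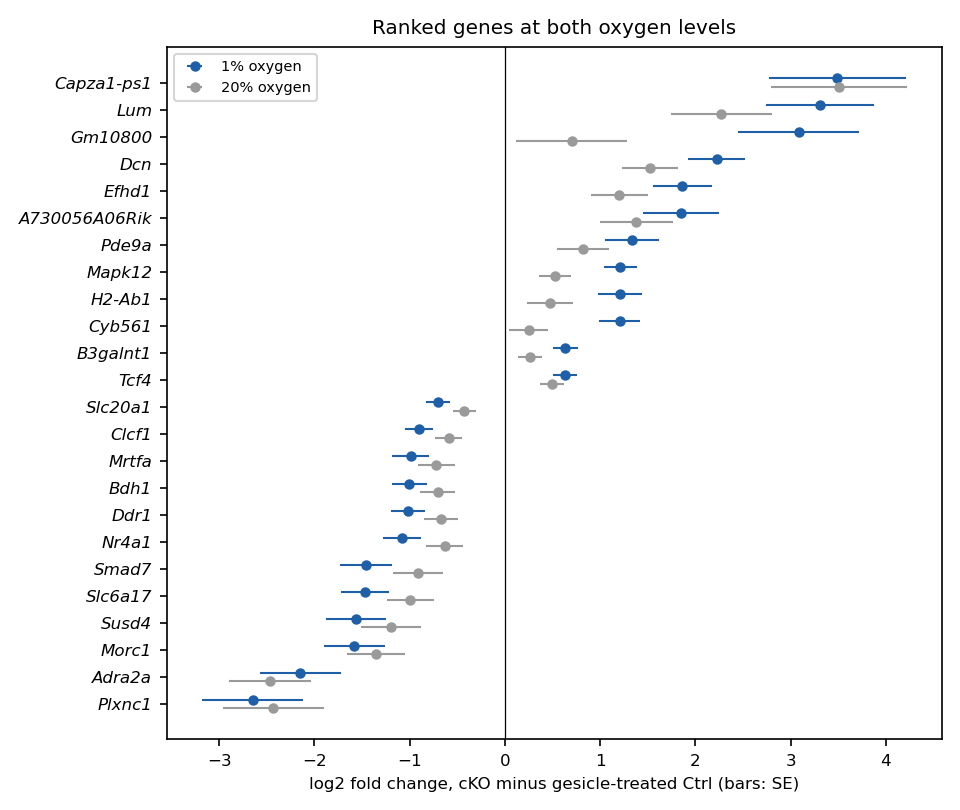
Log2 fold change, cKO minus gesicle-treated Ctrl TFs, with its SE as a bar, for the 24 genes in 1% O2 (blue) and 20% O2 (grey). Every gene lies on the same side of 0 at both O2 levels, and the points of *Cyb561* are at 1.21 and 0.25.

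The small leucine-rich proteoglycans were measured as a family. Of 13 members tested, 1 was called, 5 were higher without overlap (*Dcn*, *Lum*, *Ogn*, *Ecm2* and *Aspn*, against 8.41% of all genes) and 2 lower (*Tsku* and *Podnl1*, against 8.94%), and the median log2 fold change was 0.54. *Ogn*, encoding osteoglycin, was at 348.7, 428.7 and 401.6 against 147.0, 268.7 and 184.7 CPM (0.97 ± 0.33, edgeR adjusted p = 0.265). *Aspn*, encoding asporin, was at 739.6, 982.6 and 1096 against 578.6, 416.9 and 736.8 CPM (0.70 ± 0.30, 0.315), and the highest gesicle-treated library lay just under the lowest cKO one. The abundant members *Prelp* and *Fmod* overlapped, with log2 fold changes of -0.20 ± 0.17 and -0.28 ± 0.28. The higher members were thus not shared by the whole family, in which 8 of 13 log2 fold changes were above 0.

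Of 11 fibrillar collagen genes, 7 had log2 fold changes below 0, yet 0 were called by edgeR or DESeq2 and only *Col27a1*, which was higher, had groups that did not overlap. At an unadjusted p under 0.05 and 1.5-fold, 4 were lower (4.71% of all genes). *Col1a1*, encoding the main chain of tendon collagen, was at 831.9, 1855 and 2924 CPM in cKO TFs and 4438, 6934 and 2895 CPM in gesicle-treated Ctrl TFs (-1.35 ± 0.47, edgeR adjusted p = 0.268). *Col5a2*, encoding a chain that sits within type I fibrils, was at 1068, 1584 and 2139 against 3248, 3738 and 1976 CPM (-0.90 ± 0.30, 0.265). *Col1a2*, encoding the other type I chain, was at 1166, 2014 and 2606 against 3511, 4524 and 2135 CPM (-0.81 ± 0.34, 0.307). In each gene cKO replicate 1 was the lowest library and gesicle-treated replicate 3 lay among the cKO values. The list's median log2 fold change was -0.57, and it was -0.24 without cKO replicate 1. *Col3a1* did not share the direction, with a log2 fold change of 0.09 ± 0.42.

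Over all genes, 8.41% were higher and 8.94% lower without overlap, the shares to set beside each list here. Among 26 collagen-modifying and crosslinking enzymes, 0 were called, and 0 were higher and 7 lower without overlap. Their median was -0.25, or -0.10 without cKO replicate 1. *Loxl4* and *Loxl3*, encoding lysyl oxidases, were at 11.10, 11.03 and 17.08 against 32.22, 31.19 and 18.96 CPM (-1.06 ± 0.27, edgeR adjusted p = 0.185) and at 206.0, 308.8 and 313.1 against 481.2, 459.6 and 380.0 CPM (-0.67 ± 0.18, 0.197). DESeq2 called both. Of 36 basement membrane and integrin genes, 5 were lower and 1 higher without overlap, with a median of -0.57 that was -0.33 without cKO replicate 1. *Itga5*, encoding a fibronectin receptor chain, was at 93.19, 152.2 and 190.7 against 348.1, 319.1 and 224.7 CPM (-1.03 ± 0.24, 0.143), and *Lamb3*, a laminin chain gene, at 2.846, 4.146 and 5.703 against 7.693, 7.473 and 7.765 CPM (-0.81 ± 0.25, 0.243). Of 16 other collagen genes 1 was higher without overlap, *Col9a3*, which stood under 1 CPM in each library, and the median was -0.41, or -0.25 without cKO replicate 1. *Col12a1*, encoding a collagen of the fibril surface, was at 105.1, 100.7 and 147.8 against 245.7, 243.4 and 144.9 CPM (-0.84 ± 0.34, 0.301). Of 33 matrix proteases and inhibitors, 5 were higher and 4 lower, with a median of 0.00 (0.06 without cKO replicate 1). *Adamts6*, a metalloprotease gene, was at 4.695, 7.486 and 7.204 against 11.76, 10.64 and 8.427 CPM (-0.64 ± 0.18, 0.204), and *Serpine2*, a protease inhibitor gene, was at 435.5, 473.4 and 432.5 against 305.8, 336.9 and 308.5 CPM (0.50 ± 0.12, 0.145).

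Contractile genes and targets of SRF and YAP mostly had log2 fold changes below 0, with 6 of 27 above it. Of the 27, 10 were lower without overlap (8.94% of all genes) and 1 higher, 0 were called by edgeR, and the median was -0.48. *Lmod1*, encoding an actin nucleator, was at 10.96, 11.09 and 10.48 against 20.90, 18.31 and 17.67 CPM (-0.81 ± 0.21, edgeR adjusted p = 0.189), and DESeq2 called it. *Actn1*, encoding alpha-actinin, was at 72.56, 96.34 and 127.5 against 160.1, 190.6 and 146.6 CPM (-0.74 ± 0.21, 0.222). *Srf* itself was at 16.36, 16.44 and 18.38 against 26.80, 23.13 and 21.37 CPM (-0.48 ± 0.15, 0.255). The non-muscle myosin genes *Myh9* and *Myh10* overlapped between the groups, at log2 fold changes of -1.22 ± 0.46 and -0.75 ± 0.33. The sum of the mural and muscle markers given above, *Acta1* among them, moved with these genes, and its part was not tested.

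BMP signals through SMAD proteins to genes that include its own inhibitors. Of 29 BMP-SMAD target and osteochondral genes, 9 were lower without overlap (8.94% of all genes) and 2 higher, and 0 were called by edgeR. DESeq2 called 3 lower ones (*Smad7*, *Smad6* and *Atoh8*), against 0.676% of all genes, and the list median was -0.42. *Smad6*, the other inhibitory SMAD gene, was at 23.48, 33.08 and 32.92 against 62.33, 100.1 and 100.7 CPM (-1.55 ± 0.39, edgeR adjusted p = 0.172). *Atoh8* was at 22.20, 30.43 and 23.96 against 63.78, 106.1 and 104.2 CPM (-1.83 ± 0.55, 0.229), and *Id1*, a classical BMP target, at 18.21, 22.40 and 13.36 against 30.22, 46.20 and 38.70 CPM (-1.09 ± 0.49, 0.331). For each of these, gesicle-treated replicate 1 was the library nearest to the cKO values. The ligand gene *Bmp4* ran the other way, at 2.846, 3.426 and 7.479 against 0.7548, 1.100 and 2.107 CPM (1.83 ± 0.72, 0.298), as did *Osr2*, at 11.67, 11.37 and 10.78 against 4.064, 3.267 and 6.260 CPM (1.31 ± 0.39, 0.226). *Runx2*, the transcription factor gene of bone cells, was at 11.67, 13.10 and 13.26 against 18.06, 23.62 and 14.69 CPM (-0.56 ± 0.23, 0.305).

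Hypoxia response genes were not lower as a group in cKO TFs. Of 41 tested, 0 were called by edgeR, 13 were higher without overlap (8.41% of all genes) and 2 lower, 29 had log2 fold changes above 0, and the median was 0.19. DESeq2 called 4, all higher: *Fam162a*, *Ndufa4l2*, *Stc2* and *Higd1a* (0.352% of all genes were called higher by DESeq2). The summed level of the list was 5320, 4910 and 4770 CPM in cKO and 3990, 4280 and 4510 CPM in gesicle-treated Ctrl TFs, without overlap, while untreated Ctrl TFs in 1% O2 held 4940, 4810 and 5120 CPM and all 9 libraries in 20% O2 held 2330 to 2880 CPM. *Ndufa4l2*, encoding a mitochondrial protein of the hypoxic cell, was at 117.2, 107.7 and 119.5 against 50.72, 57.36 and 66.45 CPM (0.98 ± 0.26, edgeR adjusted p = 0.189). It overlaps *Shmt2* on the other strand, whose log2 fold change was -0.12 ± 0.14. *Fam162a*, linked to hypoxic cell death, was at 244.4, 170.4 and 163.6 against 121.1, 116.9 and 121.0 CPM (0.69 ± 0.17, 0.167). *Bnip3*, a mitophagy receptor gene, was at 550.3, 357.0 and 341.0 against 233.1, 287.2 and 297.9 CPM (0.61 ± 0.19, 0.238). In *Fam162a* and *Bnip3*, the low-depth cKO replicate 1 was the highest library, and without it the log2 fold changes were 0.48 and 0.36. With GC and length offsets that of *Fam162a* was 0.33.

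*Mgarp*, a mitochondrial transport gene, was at 8.964, 3.253 and 6.953 against 2.526, 2.944 and 1.866 CPM (1.36 ± 0.44, edgeR adjusted p = 0.255), and *Stc2*, which encodes the hormone stanniocalcin 2, at 11.38, 6.161 and 6.128 against 4.093, 4.335 and 2.920 CPM (1.03 ± 0.28, 0.197). The 2 genes that were lower without overlap were *Narf*, at 57.91, 44.66 and 44.85 against 74.67, 77.64 and 65.97 CPM (-0.57 ± 0.16, 0.222), and *Vegfa*, the angiogenic ligand gene, at 82.38, 92.42 and 82.24 against 116.1, 148.9 and 136.6 CPM (-0.64 ± 0.22, 0.268). *Hilpda*, a lipid droplet gene, overlapped between the groups (0.19 ± 0.18, or 0.12 without cKO replicate 1). The median of the list was 0.115 without that library.

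The gesicle-treated Ctrl TFs themselves stood below untreated Ctrl TFs in several of these genes. The contrasts share libraries, so each is given only with its own values. *Fam162a*, *Ndufa4l2*, *Bnip3* and *Mgarp* were named from the contrast with cKO TFs, in which their gesicle-treated libraries were the lower ones. Low values of the same libraries against untreated Ctrl TFs are thus partly fixed by that choice. For gesicle-treated against untreated Ctrl TFs in 1% O2, the log2 fold changes were -0.59 for *Fam162a*, -0.44 for *Ndufa4l2*, -0.51 for *Bnip3* and -1.30 for *Mgarp*, with a list median of -0.26 and 0 genes of any kind called by edgeR over all 15573 (230 at an unadjusted p under 0.05 and 1.5-fold, 1.48%). Libraries of these groups with the same number shared the sex, and the methods give 3 mice per genotype. They may therefore come from the same mice, which this fit did not pair. The 0 calls thus do not show that gesicles left expression unchanged. For cKO against untreated Ctrl TFs the same genes had 0.10, 0.54, 0.10 and 0.06, the list median was 0.01, and 14 autosomal genes were called (0.0899%), 9 higher (0.0578%) and 5 lower (0.0321%). *Narf* was called lower in that contrast (-0.94 ± 0.16, adjusted p = 0.0426 in edgeR), as was the glycolytic gene *Pfkl* (-0.72 ± 0.11, 0.0238), encoding phosphofructokinase, whose log2 fold change against gesicle-treated Ctrl TFs was -0.21.

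**Figure D3:**
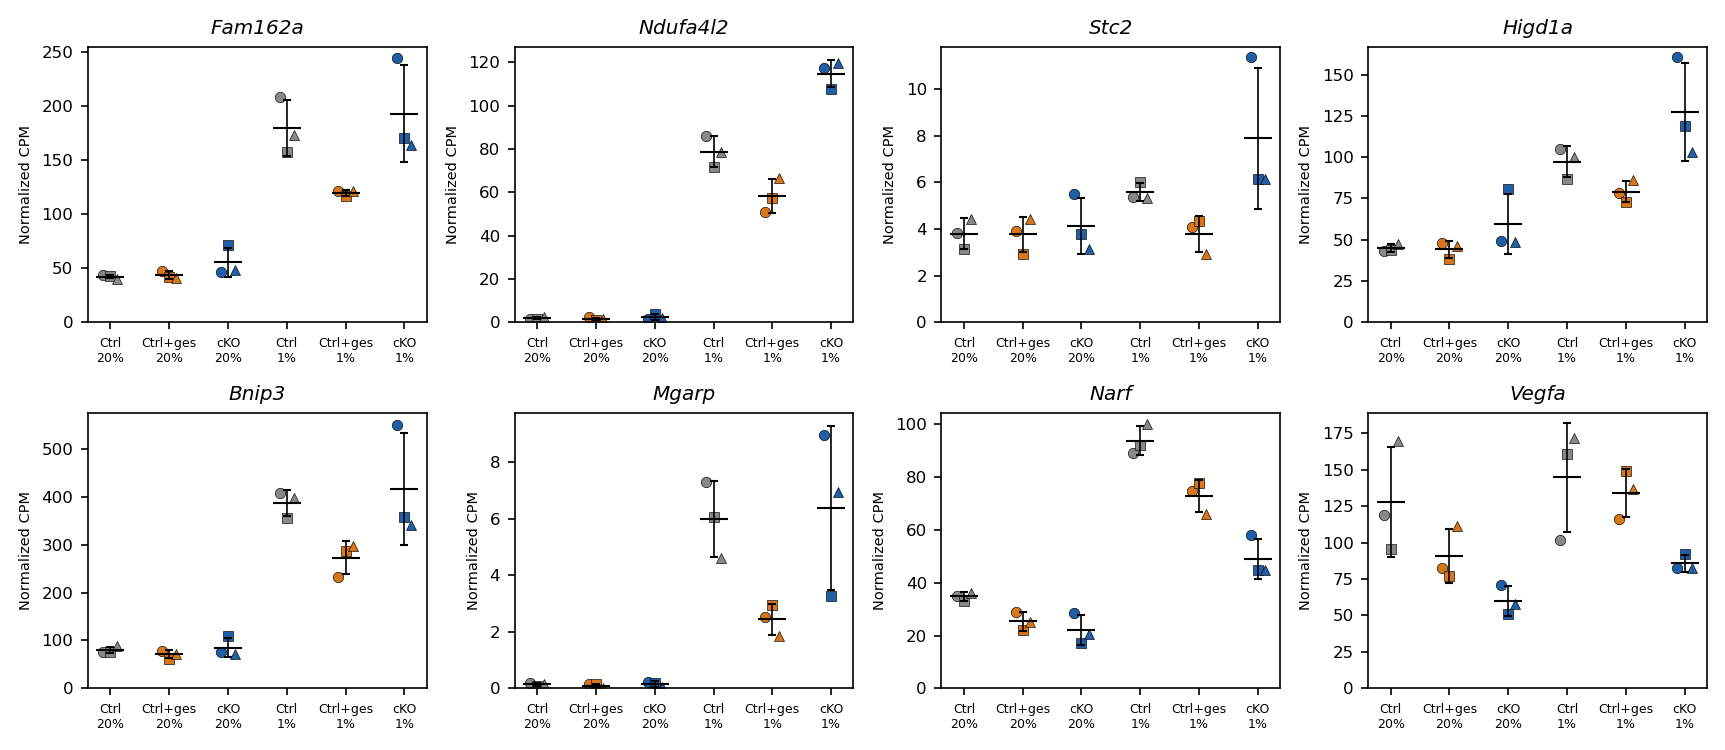
CPM (linear scale) of 8 hypoxia response genes in all 6 groups, with symbols for each library, a horizontal bar for the mean and error bars of 1 SD (n = 3). In 1% O2, *Ndufa4l2* stands at 50.72 to 66.45 CPM in gesicle-treated Ctrl TFs and 107.7 to 119.5 CPM in cKO TFs, and the level of *Narf* is lower in cKO TFs.

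Other parts of the oxygen pathway and of glucose use held 0 genes called by edgeR. Of 10 HIF pathway genes, 0 were called, and the median log2 fold change was -0.22, or -0.08 without cKO replicate 1. *Hif1a* and *Vhl* were higher without overlap (8.41% of all genes) and 1 was lower (8.94%). That gene, *Cited2*, encoding an inhibitor of HIF1 that is itself induced by it, was at 105.7, 173.8 and 160.5 against 175.7, 249.7 and 267.0 CPM (-0.65 ± 0.22, edgeR adjusted p = 0.265). *Vhl* was at 64.59, 55.25 and 61.20 against 50.43, 49.85 and 51.74 CPM (0.25 ± 0.10, 0.303). Of 19 glycolytic enzyme genes, 0 were called, 2 were higher without overlap (*Tpi1* and *Gpi1*) and 1 lower (*Pkm*), with a median of 0.05 that turned to -0.05 without cKO replicate 1. *Eno1* was at 2411, 2290 and 2347 against 2613, 2395 and 2630 CPM (-0.12 ± 0.14, 0.692), a difference whose sign turned under GC and length offsets. *Aldoc* and *Hk1* overlapped, at 0.62 ± 0.28 and -0.33 ± 0.15, and the sign of *Hk1* also turned under these offsets. Of 34 respiratory chain and mitophagy genes, 4 were higher and 0 lower without overlap. Their log2 fold changes were above 0 in 29 of 34, with a median of 0.20. *Bnip3l*, a mitophagy receptor gene, was at 305.9, 273.8 and 270.8 against 215.4, 226.3 and 258.7 CPM (0.28 ± 0.13, edgeR adjusted p = 0.331).

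Prostaglandin genes held some of the clearer single-gene differences. Of 16 tested, 4 were lower (8.94% of all genes) and 1 higher (8.41%) without overlap, and 0 were called by edgeR. DESeq2 called 3, all lower (0.676% of all genes), and the median was -0.07, or -0.15 without cKO replicate 1. *Ptgs2*, encoding the inducible cyclooxygenase, was at 78.40, 75.84 and 75.91 against 209.4, 165.4 and 100.7 CPM (-1.05 ± 0.25, edgeR adjusted p = 0.145). The cKO libraries lay close together, while the gesicle-treated ones spread 2-fold. Of 27 cytokines and chemokines, 4 were lower and 1 higher without overlap, with a median of -0.40, and *Csf1*, the macrophage growth factor gene, was at 1829, 1771 and 1675 against 2832, 3511 and 2520 CPM (-0.75 ± 0.18, 0.151).

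Progenitor and sheath markers and growth factor genes were divided in direction. Of 26 sheath and progenitor fibroblast markers, 5 were higher (8.41% of all genes) and 0 lower (8.94%) without overlap, and 0 were called by edgeR. DESeq2 called 4, all higher (0.352% of all genes). Log2 fold changes ran from -1.04 to 2.14 and were above 0 in 16 of the 26. The median was 0.09, or 0.14 without cKO replicate 1. The members given next are among the higher ones. *Clec3b*, encoding tetranectin, was at 9.817, 16.30 and 12.03 against 4.819, 3.429 and 4.334 CPM (1.61 ± 0.36, edgeR adjusted p = 0.141). *Cd55*, encoding a complement regulator, was at 398.2, 424.6 and 472.6 against 138.3, 171.8 and 245.3 CPM (1.22 ± 0.34, 0.209). *Pi16*, a marker of a fibroblast progenitor state, was at 16.08, 47.16 and 53.20 against 17.16, 10.45 and 10.08 CPM (1.65 ± 0.34). Its cKO replicate 1 lay within the gesicle-treated range, and without that library the log2 fold change was 1.997 (adjusted p = 0.0155 in edgeR).

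Of 29 genes of the IGF axis and imprinted growth genes, 5 were higher (8.41% of all genes) and 0 lower (8.94%) without overlap. Log2 fold changes were above 0 in 17 of the 29. Of these 29 genes 0 were called by edgeR, and the median was 0.07, or 0.17 without cKO replicate 1. *Igfbp3*, an IGF-binding protein gene, was at 50.37, 54.67 and 92.97 against 22.12, 26.36 and 28.11 CPM (1.38 ± 0.31, edgeR adjusted p = 0.141). *Igf1* was at 63.03, 53.26 and 71.66 against 33.44, 34.55 and 34.76 CPM (0.87 ± 0.20, 0.141), with close values in the gesicle-treated group. *H19*, an imprinted noncoding RNA, was near the floor, at no more than 4 counts in any gesicle-treated library and up to 51 counts in cKO TFs (0.4268, 0.6046 and 1.276 against 0.1161, 0 and 0.0903 CPM, adjusted p = 0.115 in edgeR), so its fitted fold change is not given. *Casp12*, a caspase gene, was at 93.62, 73.42 and 74.66 against 46.80, 39.24 and 60.10 CPM (0.72 ± 0.19, 0.180), and DESeq2 called it. *Bcl2l1*, which encodes a survival factor, was at 98.60, 103.2 and 98.80 against 125.6, 125.3 and 119.5 CPM (-0.30 ± 0.09, 0.226). *Bcl2* overlapped (0.31 ± 0.24), as did *Scx* (0.34 ± 0.41, or 0.62 without cKO replicate 1) and the iron exporter gene *Slc40a1* (0.24 ± 0.32).

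**Figure D4:**
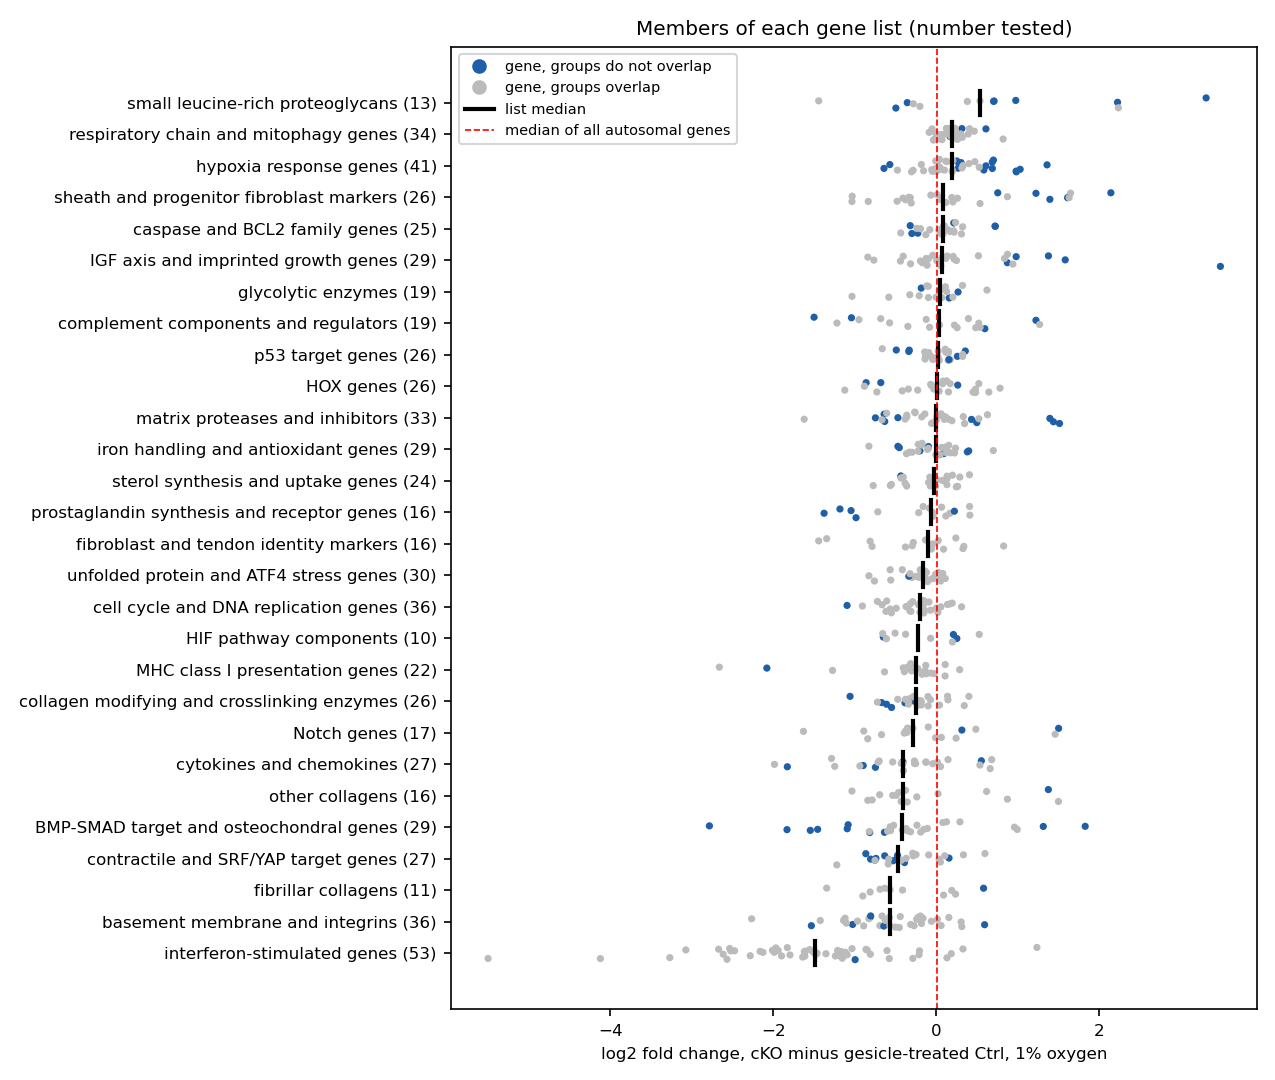
Log2 fold change, cKO minus gesicle-treated Ctrl TFs in 1% O2, of each member of the 28 gene lists, with blue points for genes whose groups do not overlap, black bars for list medians and a dashed red line for the median of all autosomal genes. The interferon-stimulated genes have the lowest median (-1.49) with nearly all points grey, and the small leucine-rich proteoglycans the highest (0.54).

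Interferon-stimulated genes, which cells switch on when they sense interferon or foreign nucleic acid, had a median log2 fold change of -1.49 over 53 members, yet 0 were called by edgeR or DESeq2 and 1 was lower without overlap (*Trim25*). The libraries of each group spread widely. The summed level of the list was 1510, 3300 and 1170 CPM in cKO TFs and 6090, 986 and 4190 CPM in gesicle-treated Ctrl TFs. Gesicle-treated replicate 2 was thus lower than every cKO library, and cKO replicate 2 was near the high gesicle-treated libraries. *Ifit1*, an antiviral RNA-binding protein gene, showed this split at 13.37, 147.6 and 4.802 against 454.1, 4.658 and 294.2 CPM, and so did the sensor gene *Ddx58*, at 40.83, 95.65 and 43.15 against 227.1, 49.50 and 126.1 CPM (-1.16 ± 0.48, edgeR adjusted p = 0.309). *Oas3*, an RNA sensor gene, was at 0, 0.3167 and 0 against 5.835, 0.1618 and 1.114 CPM, with most libraries near the floor. Untreated Ctrl TFs in 1% O2 summed to 979, 2070 and 994 CPM. In 20% O2 the groups stood apart, at 1250, 1310 and 1070 CPM in cKO and 6890, 11500 and 8460 CPM in gesicle-treated Ctrl TFs, with a median of -4.38 and 8 members called, all lower (0.462% of all genes). Untreated Ctrl TFs in 20% O2 summed to 2270, 3460 and 1000 CPM.

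**Figure D5:**
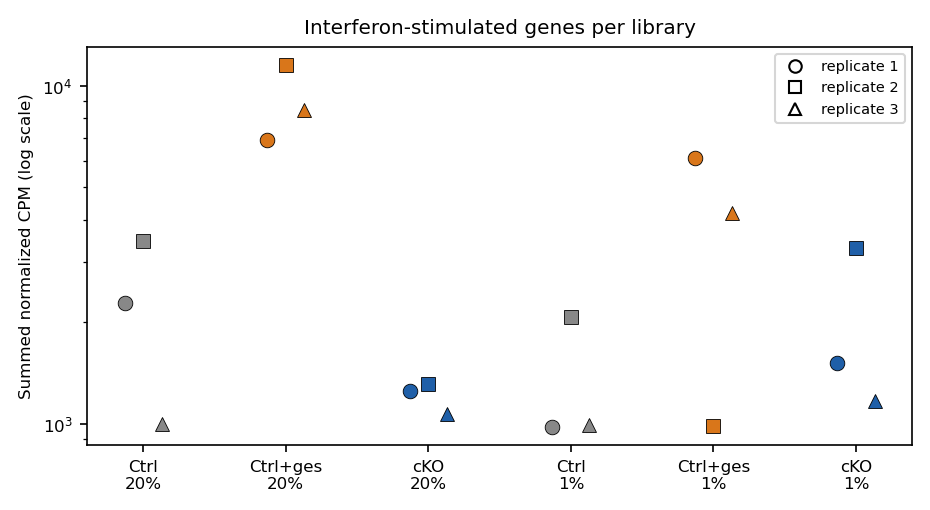
Summed CPM (log scale) of the 53 interferon-stimulated genes in each of the 18 libraries, with cKO TFs in blue, gesicle-treated Ctrl TFs in orange, untreated Ctrl TFs in grey and symbols for the replicate number. In 1% O2 gesicle-treated replicate 2 (986 CPM) lies below all cKO libraries, whereas in 20% O2 all gesicle-treated libraries lie above them.

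Class I antigen presentation genes varied less. Of 22 tested, 2 were lower without overlap (*Tap2* and *Nlrc5*, against 8.94% of all genes), 0 were called and the median was -0.25. *Tapbp* was at 187.9, 235.3 and 243.7 against 297.1, 235.7 and 291.3 CPM (-0.30 ± 0.12, edgeR adjusted p = 0.297, or -0.20 on the log2 scale without cKO replicate 1). *H2-Q6* was at 0.1423, 0.0576 and 0.0250 against 0.8709, 0.0647 and 0.0903 CPM. In 20% O2, 11 of the 22 were called lower (0.462% of all genes). Complement genes were divided, with 2 higher (8.41% of all genes) and 2 lower (8.94%) without overlap among 19. Their median was 0.04 (0.07 without cKO replicate 1), and *C2* was at 4.268, 9.991 and 16.28 against 30.60, 16.43 and 17.94 CPM (-1.04 ± 0.38, edgeR adjusted p = 0.271).

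In the remaining lists 0 genes were called by edgeR. Of 36 cell cycle and replication genes, 1 was lower without overlap and the median was -0.20. That gene was *Rrm2*, encoding a subunit of ribonucleotide reductase, at 147.3, 174.4 and 156.2 against 369.6, 345.5 and 307.0 CPM (-1.10 ± 0.26, edgeR adjusted p = 0.145), whereas *Foxm1*, a mitotic transcription factor gene, overlapped at 4.695, 5.183 and 4.978 against 14.66, 9.187 and 4.153 CPM. Of 26 HOX genes, which record the position of a cell along the body, 2 were lower and 1 higher without overlap, and *Hoxc13* was at 28.03, 39.65 and 35.54 against 46.19, 75.80 and 66.42 CPM (-0.86 ± 0.21, 0.151), while *Hoxb13* overlapped at 115.0, 67.37 and 107.5 against 58.70, 42.22 and 84.18 CPM. The antioxidant genes *Txnrd1* and *Gclm* were lower without overlap (-0.47 ± 0.13 and -0.46 ± 0.14), within a list of 29 with 3 higher, 4 lower and a median of -0.01 (-0.07 without cKO replicate 1). Of 26 p53 targets, 3 were higher and 3 lower without overlap (median 0.02), and of 25 caspase and BCL2 family genes 3 and 3 (0.08). Of 24 sterol genes the counts were 0 and 1 (-0.03), and of 30 unfolded protein and ATF4 stress genes 0 and 1 (-0.16). Of 17 Notch genes they were 2 and 0 (-0.29), and of 16 fibroblast and tendon identity markers 0 and 0 (-0.10). Over all genes, 8.41% were higher and 8.94% lower without overlap. Without cKO replicate 1 the medians of the sterol and stress lists turned to 0.02 and 0.01, and that of the p53 targets was 0.0055.

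In the p53, sterol, stress and Notch lists, the 2 members of smallest p had adjusted p of 0.255 to 0.331 in edgeR. Of p53 targets, *Tigar*, which restrains glycolysis, was at 3.841, 4.866 and 5.278 against 6.271, 7.505 and 6.2 CPM, and *Tnfrsf10b*, a death receptor gene, at 28.74, 28.59 and 30.59 against 39.51, 36.94 and 34.34 CPM. Of sterol genes, *Hsd17b7* was at 82.52, 83.01 and 84.19 against 128.5, 116.3 and 93.03 CPM, and *Srebf1*, a transcription factor gene of lipid synthesis, at 42.12, 58.27 and 74.41 against 93.54, 93.69 and 72.59 CPM. These 4 genes were lower in cKO TFs without overlap except for *Srebf1*. Of stress genes, *Dnajc3*, a chaperone gene, was at 276.9, 318.6 and 319.7 against 378.8, 433.0 and 315.3 CPM, and *Slc7a11*, the cystine transporter gene, at 3.699, 7.486 and 8.154 against 10.16, 17.79 and 7.464 CPM, and both overlapped. Of Notch genes, the receptor gene *Notch4* was at 0.1423, 0.4319 and 0.8504 against 2.497, 2.006 and 0.6019 CPM, and *Rfng*, which modifies Notch, at 85.65, 40.88 and 42.20 against 39.16, 35.88 and 44.63 CPM. Only cKO replicate 1 stood above all gesicle-treated libraries in *Rfng*, whose log2 fold change was 0.06 without it and 0.48 with it.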

How the data were processed

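Poly-A RNA-seq of mouse tail TFs gave 18 libraries, 3 in each of 6 groups by genotype, O2 level and gesicle treatment as labelled, with totals of 6857558 to 51806453 counts. The authors trimmed reads with cutadapt, mapped them to GRCm38 with STAR and deposited estimated counts per gene from RSEM 1.3.3 as whole numbers, without normalization, for 55491 rows including 4 transgenes. The labels give 10% serum and the methods 1%. Strand use in counting is not given in the sources used here. Estimates that split reads between near-identical genes are uncertain, and depth limits low genes.

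After filterByExpr, all 18 libraries entered a quasi-likelihood model in edgeR 4.0.16, with TMM factors, a coefficient for each group and 12 residual degrees of freedom. Benjamini-Hochberg adjustment ran over 16174 genes. Calls required an adjusted p under 0.05 and 1.5-fold, and autosomal genes were counted, since the groups differ in sex. SE was derived from the F statistic as the size of the log2 fold change over the root of F. Correlations between libraries are across genes, which are not independent replicates. No libraries were copies (smallest chi-square per degree of freedom 36.2 among the 6). Positions came from GENCODE M21, matched for 99.9% of genes, and promoters from RefSeq. R 4.3.3, limma 3.58.1, DESeq2 1.42.0 and Python 3.11.15 were used. Replicates are read as separate mice, as the methods give 3 per genotype, but the labels do not tie libraries to mice, so p-values measure the spread between these libraries, which the model takes as independent.

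The groups, gene lists and alternatives were chosen with earlier results of these data known, and a pair of limma fits was added after seeing the data. Genes were named as *Hif1a* and Cre, the 12 genes per direction described in the text, the 2 list members of smallest p (or those called), and genes of the study's text. Of the 86 genes so named, 1 is not reported here. Any other list member, overlapping gene or parent gene named was chosen after its values were seen, as were *Fam162a* and *Bnip3* for their promoters. Tests on simulated counts (16174 genes, 100 changed 2-fold and 100 changed 4-fold in this comparison) recovered 53 and 89 with edgeR and 71 and 95 with DESeq2, with 4 and 26 unchanged genes among the calls.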

Additional observations from a re-analysis of the deposited data

Results flagged for a closer look

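The table has rows for fluorescent reporter transcripts, which took no part in the comparisons. The egfp row held 1 count in cKO replicate 2 and 5 in cKO replicate 3 in 1% O2, and 2, 5 and 1 counts in the cKO libraries in 20% O2, with 0 in cKO replicate 1 in 1% O2 and in all Ctrl libraries. The tdtomato row held 3, 1 and 1 counts in the gesicle-treated libraries in 1% O2 and 1, 0 and 2 in those in 20% O2, with 0 in every other library. These counts stand out only against 0 in the other groups, and most are at or below the floor of 3 counts. The mcherry row was 0 in all 18 libraries. Groups of 3 libraries were too small for a test of single outlying values.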

How the results depend on the processing

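The count of called genes (2, both higher) depended strongly on the tool. It was 146 (50 higher, 96 lower) with DESeq2, 1138 (255 and 883) with limma voom quality weights, which ranged from 0.176 to 4.06 between libraries, 1235 (501 and 734) at unadjusted p, 32 (12 and 20) without a filter on low counts, 7 (3 and 4) with *Xist* as a covariate, 7 (7 and 0) with GC and length offsets, 16 (15 and 1) with these offsets and the replicate block, and 0 (0 and 0) in a fit of the 6 libraries alone, with or without the replicate block, or in a test against 1.5-fold. RLE size factors, a filter on CPM, thinned counts and no fold minimum gave counts within 1.5 times of 2, but with thinned counts *Mapk12* lost its call (edgeR adjusted p = 0.425). Leaving out each library gave 0 to 5 called genes (0 to 5 higher, 0 lower), with 5 without cKO replicate 1, 1 without gesicle-treated replicate 3 and 0 without any other. In 20% O2, DESeq2 called 322 in place of 81. The cause was not tested, apart from the smaller number of samples in the fits of 6 and 17 libraries.

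Between cKO and gesicle-treated libraries in 1% O2, those with the same replicate number deviated with correlations of -0.0473, -0.099 and -0.144, so the numbers did not pair these groups, and the replicate block called 11 genes (9 and 2). Between O2 levels, libraries of a group with the same number shared the sex, and their deviations correlated at 0.0921 to 0.368 in cKO and -0.00612 to 0.216 in gesicle-treated TFs. The labels do not say whether they share a mouse. In limma voom, added after seeing the data, 5 genes (4 and 1) were called without and 1 (1 and 0) with a correlation (0.187) within libraries of the same genotype and number. That gene was *Dcn* (adjusted p = 0.00949 in limma), and *Mapk12* had an adjusted p of 0.0511. Of 1800 values of 86 named genes under 21 alternatives, 1633 kept sign and side of the threshold, 18 lost a call, 143 gained one and 6 turned sign. The last were *Hk1* (0.023 with GC and length offsets, 0.024 with the block added), *Eno1* (0.135 and 0.13 likewise), *Bcl2* (-0.49 with thinned counts) and *Slc40a1* (-0.027 without gesicle-treated replicate 1, up to 0.532 without gesicle-treated replicate 2). Of 588 list medians, 63 moved by more than the spread between libraries.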
